A study of Mus musculus with 7 samples.

Results

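The Schlafen genes are a family clustered on mouse chromosome 11 whose founding members were named for their effect on T cell growth. The genes described are Slfn1, Slfn2, Slfn3, Slfn4, Slfn5, Slfn8 and Slfn9, chosen by symbol in the deposited table. All 7 passed the filter on low counts, out of 13904 genes that did and 25469 genes with any count. Expression was measured by RNA-sequencing of splenic CD4+CD25+ cells, the surface phenotype of regulatory T cells (Tregs), in order to describe these cells in aging. Cells came from WT mice and were isolated with magnetic beads and not sorted by Foxp3. The aged group held 3 biological replicates from mice of 18 months. The young group held 4 biological replicates from mice of 8 weeks by the sample labels, whereas the methods of the study give 10 weeks. Both groups consisted of male C57BL/6 mice by those methods.

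Schlafen proteins share an N-terminal core related to divergent AAA ATPases and endoribonucleases, and they are commonly placed in a short form (Slfn1 and Slfn2), an intermediate form (Slfn3 and Slfn4) and a long form that carries a helicase-like domain (Slfn5, Slfn8 and Slfn9). Slfn2 is known as a quiescence factor, because T cells of the elektra mouse, which carries a defective Slfn2, enter a semi-activated state and die. Several Schlafen genes are induced by type I interferon, and Slfn4 is best known from monocytes, macrophages and neutrophils.

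The sequences upstream of the 7 genes are shown because 2 exact runs of letters divide the genes into 2 sets. The expression values below can be read against these sets. RefSeq promoter windows (build GRCm38.p6) matched all 7 genes, and the 250 bases before the annotated start were searched on both strands. Slfn8 has a second RefSeq start, whose window was searched too. In the stretches and comparisons below its window is that of the start nearer to the match. The letters ACTTCCTGG (CCAGGAAGT on the other strand), which contain the GGAA core that ETS family factors recognise, were present before Slfn1, Slfn2, Slfn3 and Slfn4 and in 0.7% of all 32851 windows of this length. These letters were picked after the sequences had been read. The letters GAAANNGAAA (TTTCNNTTTC on the other strand), a core of the interferon-stimulated response element, were present before Slfn5, Slfn8 and Slfn9 and in 2.98% of all windows. No window held both. This division holds for the exact letters only. GGAA alone also occurs in the windows of Slfn5, Slfn8 and Slfn9, and the Slfn4 window holds tttcactttt, a near match to TTTCNNTTTC. The letters TTCNNNGAA, the form bound by STAT dimers, were in no window of the 7 genes and in 7.02% of all windows. A match describes the letters only, and binding was not measured. In the stretches below, capitals mark the match, and each stretch is printed 5′ to 3′ on the strand of the gene.
Slfn1, chr11:83116734-83116766 (plus strand): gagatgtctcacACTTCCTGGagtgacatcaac
Slfn2, chr11:83065045-83065077 (plus strand): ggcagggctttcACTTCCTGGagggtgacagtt
Slfn3, chr11:83191276-83191308 (plus strand): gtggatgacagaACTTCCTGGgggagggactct
Slfn4, chr11:83175101-83175133 (plus strand): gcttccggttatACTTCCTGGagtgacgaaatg
Slfn5, chr11:82951935-82951968 (plus strand): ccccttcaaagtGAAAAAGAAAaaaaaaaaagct
Slfn8, chr11:83020837-83020870 (minus strand): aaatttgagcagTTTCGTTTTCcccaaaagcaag
Slfn9, chr11:82991854-82991887 (minus strand): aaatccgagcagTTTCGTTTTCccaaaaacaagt

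The match lay 74 bases before the start of Slfn1, 55 before Slfn2, 42 before Slfn3 and 73 before Slfn4. It lay 155 bases before the start of Slfn5, in a stretch between exons of the longer GENCODE gene model. For Slfn8 and Slfn9 it lay 48 and 45 bases before the start, and 136 bases before the second Slfn8 start. Distances are counted from RefSeq starts, which for Slfn1 and Slfn5 differ from the GENCODE starts given below. The Slfn1 and Slfn4 windows shared a run of 15 bases around the match, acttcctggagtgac. The windows of the neighbouring genes Slfn8 and Slfn9 shared a run of 20 bases, tctggcagcatgcctgcagc, the longest run shared by any pair of the 7 windows. The whole upstream windows of Slfn2, the most abundant transcript, of Slfn4, which changed most with age, and of the neighbours Slfn8 and Slfn9 were as follows.
Slfn2, chr11:83064862-83065111 (plus strand): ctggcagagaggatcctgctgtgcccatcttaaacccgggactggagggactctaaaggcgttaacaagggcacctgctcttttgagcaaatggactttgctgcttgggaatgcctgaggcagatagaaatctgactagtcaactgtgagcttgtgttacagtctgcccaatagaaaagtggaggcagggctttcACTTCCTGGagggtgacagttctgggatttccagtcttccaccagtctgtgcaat
Slfn4, chr11:83174936-83175185 (plus strand): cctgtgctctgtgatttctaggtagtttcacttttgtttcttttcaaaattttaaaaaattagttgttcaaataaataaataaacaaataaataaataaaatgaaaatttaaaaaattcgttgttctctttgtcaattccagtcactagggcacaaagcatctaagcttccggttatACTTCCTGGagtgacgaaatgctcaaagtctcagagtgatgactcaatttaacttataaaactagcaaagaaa
Slfn8, chr11:83020811-83021060 (minus strand): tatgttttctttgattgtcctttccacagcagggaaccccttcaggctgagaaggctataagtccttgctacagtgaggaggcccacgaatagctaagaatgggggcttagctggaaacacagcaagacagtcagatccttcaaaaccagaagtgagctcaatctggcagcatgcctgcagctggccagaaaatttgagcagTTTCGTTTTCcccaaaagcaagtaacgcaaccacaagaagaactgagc
Slfn9, chr11:82991831-82992080 (minus strand): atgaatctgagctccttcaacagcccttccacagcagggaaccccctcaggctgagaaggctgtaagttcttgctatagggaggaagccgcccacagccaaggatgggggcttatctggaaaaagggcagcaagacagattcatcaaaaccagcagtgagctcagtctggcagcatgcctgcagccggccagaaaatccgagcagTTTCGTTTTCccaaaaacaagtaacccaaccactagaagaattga

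The 7 genes lie in a cluster of 335 kb on chromosome 11, from 82951349 to 83286726 in GENCODE M21 (GRCm38), which also holds the pseudogene Slfn10-ps and, at its far end, Slfn14. In order, Slfn5 (ENSMUSG00000054404) is at 82951349 to 82964840, Slfn9 (ENSMUSG00000069793) at 82978390 to 82991830, Slfn8 (ENSMUSG00000035208) at 83002158 to 83020810, Slfn2 (ENSMUSG00000072620) at 83065112 to 83070678, Slfn1 (ENSMUSG00000078763) at 83116849 to 83122670, Slfn4 (ENSMUSG00000000204) at 83175186 to 83190216 and Slfn3 (ENSMUSG00000018986) at 83191330 to 83215154. Slfn8 and Slfn9 are on the minus strand and the other 5 on the plus strand. The genes resemble each other, which bears on how well reads can be assigned. Of all 50-base stretches in their transcripts, 0.606% of Slfn1, 4.27% of Slfn2, 11.3% of Slfn4, 11.9% of Slfn9, 14.6% of Slfn8 and 16.0% of Slfn3 also occur in another gene. Slfn3 shares them mostly with Slfn4 and Gm11427, and Slfn8 and Slfn9 with each other and with Slfn10-ps. For Slfn5 the share was 11.1%, mostly with the antisense gene Slfn5os, which overlaps 8.84% of its exons. At 100 bases no share was above 6.4%. Reads from shared stretches could be lost or assigned to the wrong copy, so the levels of Slfn3, Slfn4, Slfn8 and Slfn9 carry that uncertainty.

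Gene counts per library ran from 10734234 to 13649310. CPM are counts scaled to library size, elsewhere on the TMM scale that removes composition differences between libraries. By library size alone, without TMM, a count of 3 corresponded to 0.22 to 0.279 CPM. Replicates of a group differed beyond counting noise (chi-square of 8.88 to 185 for each degree of freedom). Il2ra, which encodes CD25, was at 327 to 481 CPM in aged and 471 to 684 CPM in young cells, and Foxp3 at 447 to 622 and 394 to 518 CPM. Aged replicate 1 stood apart in the Schlafen genes, as described below, and the values of the Schlafen genes are given with and without it. It was singled out after these values had been seen, so the fits without it are descriptions and not separate tests. This is bulk RNA of isolates that also held transcripts of other cells, and the word Tregs below names these isolates. In bulk RNA, fewer cells of a type and less RNA per cell cannot be told apart.

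In the young CD4+CD25+ isolates the Schlafen transcripts covered a wide range. Per kilobase of exon, Slfn2 was the most abundant at 201 ± 18.3 CPM per kb (SD, n = 4), followed by Slfn1 at 62.3 ± 5.42, Slfn8 at 21.4 ± 2.38 and Slfn5 at 13.7 ± 0.892 CPM per kb. The 3 remaining members were low, with 2.85 ± 0.0843 CPM per kb for Slfn9, 2.18 ± 0.283 for Slfn3 and 1.13 ± 0.459 for Slfn4. No young library of a member reached the range of the next member in this order, so the order held in every young library. In aged Tregs Slfn2 again led at 179 ± 3.60 CPM per kb (SD, n = 3), while the ranges of Slfn1 and Slfn8 and of Slfn9 and Slfn3 overlapped, and that of Slfn4 overlapped those of Slfn3, Slfn5 and Slfn8. Slfn4, the lowest in young cells, was at 4.09 and 3.97 CPM per kb in aged replicates 2 and 3 and at 31.7 CPM per kb in aged replicate 1. Slfn2 made up 63.5% to 68.9% of the summed per-kb level of the 7 genes in the young libraries, and 50.5%, 65.5% and 71.8% in aged replicates 1 to 3. Slfn2 was thus the main Schlafen transcript in every library, and it ranked 436 of the 13904 genes tested by abundance.

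**Figure D1:**
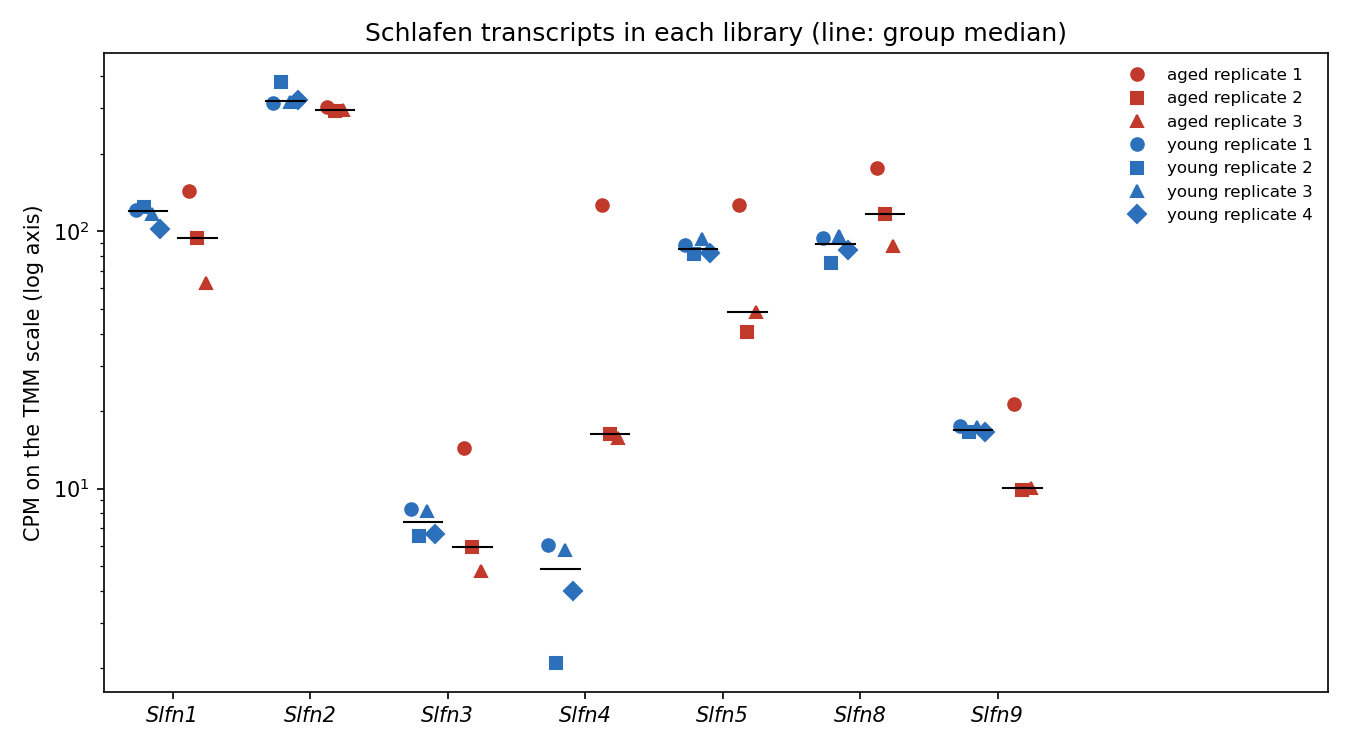
CPM on the TMM scale (log axis) of the 7 Schlafen genes in each of the 4 young (blue) and 3 aged (red) libraries, with a black line at each group median. Slfn4 was at 2.10 to 6.03 CPM in young and at 15.7 to 126 CPM in aged libraries, Slfn2 was at 293 to 379 CPM over all 7 libraries, and aged replicate 1 (red circles) was the highest library for every gene except Slfn2.

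Of the 7 genes, 1 differed between aged and young Tregs. Slfn4 rose, and none fell with an adjusted p under 0.05, while 9.8% of all genes tested were higher and 6.94% lower in aged Tregs by the same rule (16.7% in either direction). The median log2 fold change of the 7 genes was -0.17, beside 0.02 over all genes tested, and it was -0.47 without aged replicate 1, again beside 0.02. With so few genes neither the count nor the median sets the family apart from the rest of the transcriptome.

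Among the short forms, the 3 aged libraries held Slfn2 at 304, 293 and 296 CPM. The young libraries, replicates 1 to 4, held it at 315, 379, 318 and 323 CPM. All aged libraries lay below all young ones, but the gap was small beside the spread, since young replicate 2 stood alone at the top. This is a log2 fold change of -0.17 with a standard error of 0.105 and a 95% confidence interval of -0.41 to 0.07 (adjusted p = 0.313 by edgeR's quasi-likelihood test). An exact two-sided permutation test gave p = 0.0571, the smallest that 3 against 4 libraries allow, and 14.4% of all genes had every aged library below every young one (29.9% had no overlap in either direction). With the trends of GC content and gene length removed Slfn2 had a log2 fold change of -0.33 with a standard error of 0.115 (adjusted p = 0.0741 by edgeR), a larger change that was again not called. Slfn1, described as a brake on thymocyte growth, was at 143, 94.0 and 62.9 CPM in aged and 121, 124, 117 and 102 CPM in young libraries. Aged replicate 1 was the highest of the 7 libraries and the other aged replicates the lowest, so the groups overlapped. For Slfn1 the log2 fold change of -0.22 had a standard error of 0.238 (adjusted p = 0.574 by edgeR). It became -0.57 without aged replicate 1 (adjusted p = 0.0508 by edgeR), just outside the threshold.

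Among the intermediate forms, Slfn4 was at 126, 16.2 and 15.7 CPM in aged and at 6.03, 2.10, 5.77 and 4.01 CPM in young libraries. Every aged library was above every young one, as in 15.5% of all genes tested, and aged replicate 1 was far above the others. The reads behind these values numbered 1440, 161 and 168 in aged and 30 to 73 in young libraries. The rise was 11.8-fold, a log2 fold change of 3.56 (standard error 0.775, 95% confidence interval 1.79 to 5.33, adjusted p = 0.018 by edgeR). Without aged replicate 1 the rise was 3.57-fold, a log2 fold change of 1.84 (adjusted p = 0.0126 by edgeR), so in that fit the direction and the call stayed and the size fell. Without young replicate 4 the adjusted p was 0.0573 by edgeR, which ended the call, as did limma voom (adjusted p = 0.07), and DESeq2 gave no p because 1 library was past its outlier limit. Slfn3, which lies next to Slfn4 in the cluster and is studied mostly in T cells and the gut, was at 14.4, 5.94 and 4.77 CPM in aged and 8.30, 6.52, 8.21 and 6.67 CPM in young libraries. The 2 lowest libraries and the highest were all aged. Slfn3 had a log2 fold change of 0.18 with a standard error of 0.358 (adjusted p = 0.772 by edgeR), which became -0.47 (adjusted p = 0.144 by edgeR) without aged replicate 1, with opposite signs in the 2 fits.

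Among the long forms, Slfn5, a nuclear protein, was at 126, 40.7 and 48.4 CPM in aged libraries. In young libraries it was at 88.4, 81.4, 93.4 and 82.3 CPM. Thus aged replicate 1 was above every young library and the other aged replicates far below every young library. Over all libraries Slfn5 had a log2 fold change of -0.27, with a standard error of 0.348 (adjusted p = 0.641 by edgeR). Leaving out aged replicate 1 gave -0.96 with a standard error of 0.111 (adjusted p = 0.00268 by edgeR). That library was singled out by these same values, and leaving it out narrows their spread. Slfn9 showed the same arrangement, at 21.2, 9.87 and 10.01 CPM in aged and 17.6, 16.6, 17.3 and 16.6 CPM in young libraries. That was a log2 fold change of -0.31 with a standard error of 0.263 (adjusted p = 0.462 by edgeR), and of -0.78 with a standard error of 0.123 (adjusted p = 0.00645 by edgeR) when aged replicate 1 was left out. Slfn8, whose transgenic expression is known to slow T cell growth, was at 176, 116 and 87.7 CPM in aged and 94.2, 75.0, 96.1 and 84.6 CPM in young libraries. Aged replicate 3 fell inside the young range, so the groups overlapped. Slfn8 had a log2 fold change of 0.54 with a standard error of 0.215 (adjusted p = 0.124 by edgeR), and of 0.22 (adjusted p = 0.33 by edgeR) in the absence of aged replicate 1. Without aged replicate 3 it was 0.74 (adjusted p = 0.0484 by edgeR) and passed the threshold.

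**Figure D2:**
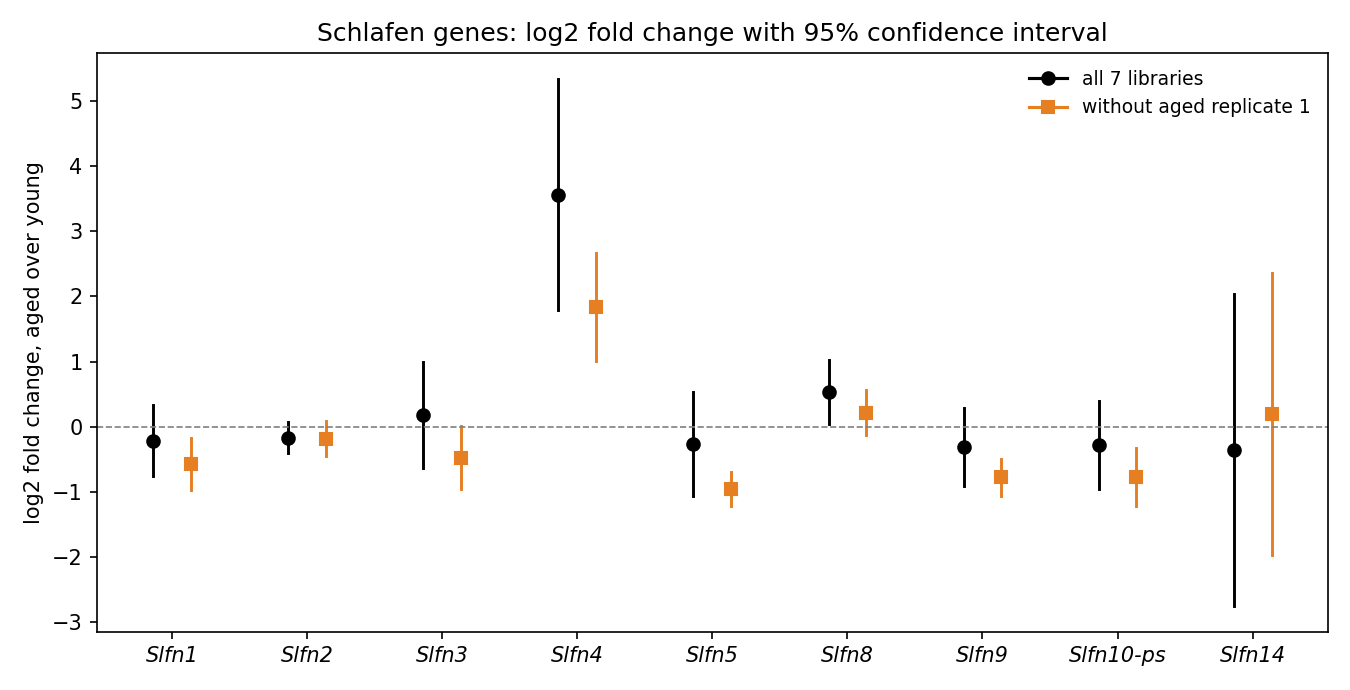
Log2 fold change of aged over young libraries (y axis) for the 7 Schlafen genes, Slfn10-ps and Slfn14, with bars for the 95% confidence interval from edgeR. Black circles use all 7 libraries and orange squares leave out aged replicate 1, which moves Slfn5 from -0.27 to -0.96 and Slfn4 from 3.56 to 1.84 and leaves Slfn2 at -0.19.

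Aged replicate 1 was the highest of the 7 libraries in 6 of the 7 Schlafen genes, all but Slfn2, in which it had rank 5. In all genes tested it was the highest in 16.4% (2274 genes). Compared with the mean of the other aged libraries it held 7.88-fold more Slfn4, 2.83-fold more Slfn5, 2.69-fold more Slfn3 and 2.14-fold more Slfn9, but 1.03-fold the level of Slfn2. The summed level of the 7 genes was 911 CPM in aged replicate 1, 575 and 525 CPM in aged replicates 2 and 3, and 619 to 685 CPM in the young libraries. Without aged replicate 1, 1 of the 7 genes was higher (Slfn4) and 2 lower (Slfn5 and Slfn9) in aged Tregs, while 11.3% of 14229 genes tested were higher and 10.2% lower. Aged replicate 1 was the highest library in all 3 genes with the interferon letters upstream (Slfn5, Slfn8 and Slfn9) and in 3 of the 4 genes with the other letters (Slfn1, Slfn3 and Slfn4).

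Which other library properties moved with the Schlafen genes was read from lists of genes. The interferon response list, 28 genes that type I interferon induces, was highest in aged replicate 1 for 25 of 28 genes. Its median log2 fold change was 0.56 over all libraries and 0.12 without aged replicate 1. By the test 3 of the 28 were higher, a share near the 9.8% of all genes, and none was lower. These were Mx1 (log2 fold change 2.05, adjusted p = 0.0289), Oas1a (1.88, adjusted p = 0.00241) and Ifi44 (4.002, adjusted p = 0.00435 by edgeR), which encode antiviral effectors. Without aged replicate 1, Mx1, Oas1a and Ifi44 were again higher (adjusted p = 0.0464, 0.00285 and 0.00227 by edgeR), and Ddx58, a viral RNA sensor gene, was lower (log2 fold change -0.40, adjusted p = 0.0363). Without aged replicate 2, 8 of the 28 were higher, beside 1081 of all genes. Mx1 lost its call without any 1 of the 4 young replicates (adjusted p from 0.0539 to 0.0763 by edgeR) and with limma voom (adjusted p = 0.0585). With the replicate number as a block all 3 calls of the list were lost by edgeR (adjusted p = 0.0719 for Mx1 and 0.0546 for Oas1a). Over all genes that fit called 202 higher. Young replicate 2 was the lowest library for 18 of the 28 genes, and was lowest for 2 of the 7 Schlafen genes. The share of all genes lowest in it was not computed. It differed most from the other young libraries (chi-square for each degree of freedom 80.4 to 168, beside 8.88 to 37.6 among those). The interferon list and the Schlafen genes thus shared their highest library, and their part in each other's level was not tested. Of 11 genes of interferon signalling, 2 were higher, among them Irf1 (log2 fold change 0.79, adjusted p = 0.00624 by edgeR), beside 9.8% of all genes. Another 2 were lower, Ifngr2 (-0.83, adjusted p = 0.00117) and Ifnar1 (-0.41, adjusted p = 0.0402 by edgeR), beside 6.94% of all genes. Without aged replicate 1, 3 were lower, beside 10.2% of all genes.

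**Figure D3:**
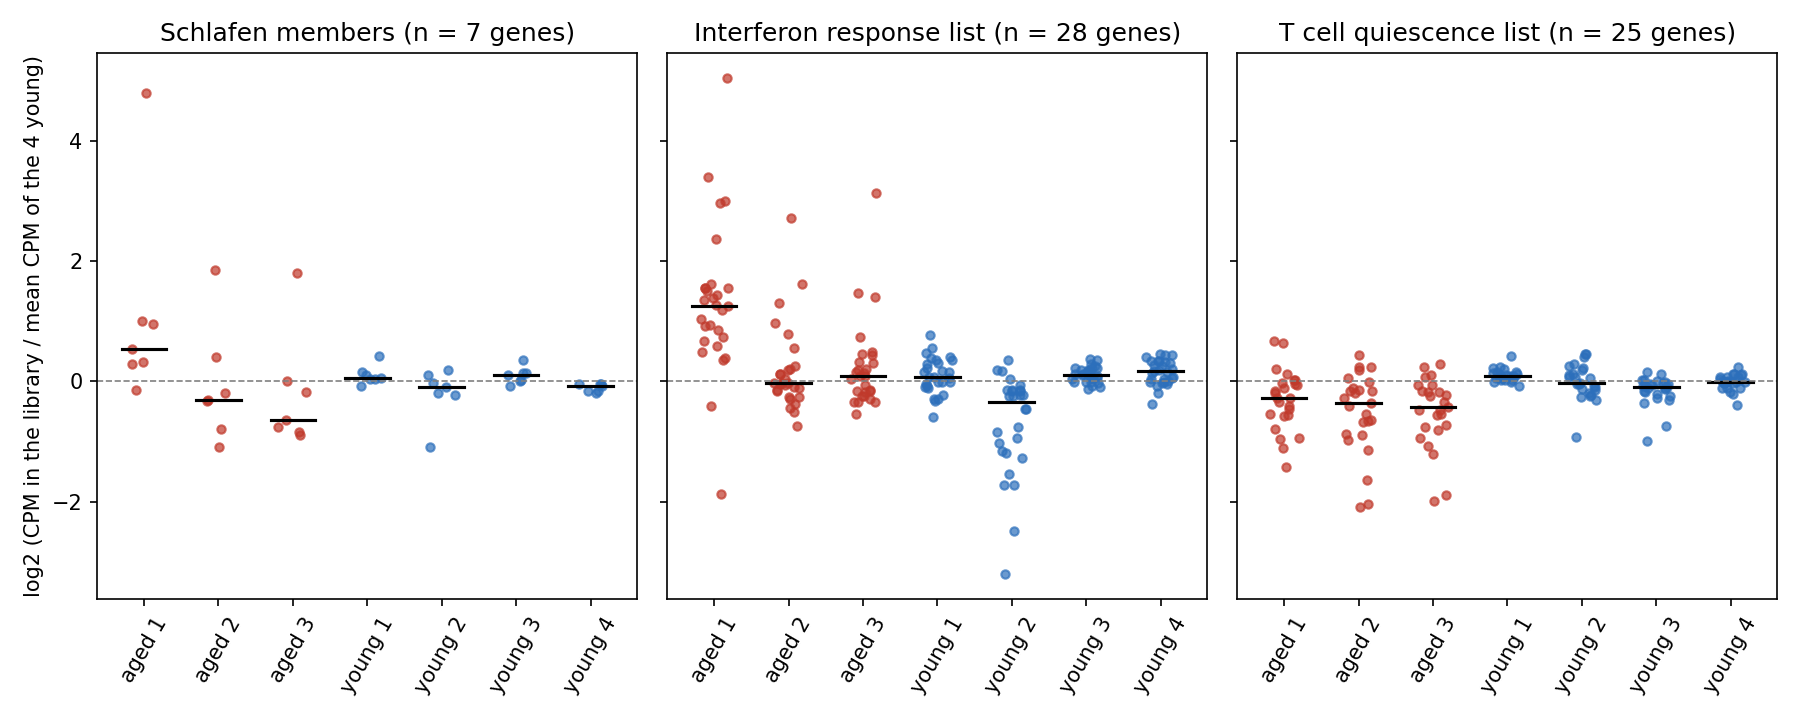
Log2 of the CPM in each library over the mean of the 4 young libraries (y axis) for each gene (points) of the Schlafen genes, the interferon response list and the T cell quiescence list, with black lines at the median of each library. Aged replicate 1 was highest for 6 of 7 Schlafen genes and 25 of 28 interferon genes but for 4 of 25 quiescence genes.

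Slfn2 is known for keeping T cells at rest, and some other genes of T cell quiescence fell in aged Tregs. Of 26 listed genes 25 were tested, and 9 were lower and none higher, beside 6.94% of all genes that were lower. The median log2 fold change was -0.30. Tob1, an antiproliferative factor of resting T cells, fell by 1.80 on the log2 scale (adjusted p = 0.00124), Bach2, a repressor of effector genes, by 1.19 (adjusted p = 0.00503) and Klf2, a regulator of homing and quiescence, by 1.15 (adjusted p = 0.0123 by edgeR). Klf2 lost its call without aged replicate 3 (adjusted p = 0.0516 by edgeR) and with the replicate number as a block (adjusted p = 0.0818 by edgeR). It was also lost with the block and the GC content and gene length trends removed (adjusted p = 0.067 by edgeR). Foxo1, Foxp1, S1pr1, Tob2, Pdcd4 and Zfp36l2 were also lower. With the replicate number as a block 2 of the 25 were lower, beside 90 of all genes, in place of 965 without the block. With each library left out in turn 4 to 11 were lower and none higher. The count was 11 without aged replicate 1, 4 without aged replicate 3 and 5 without young replicate 1. Over all genes the same fits called 1455, 448 and 468 lower. Markers of naive T cells moved with this list, since all 7 of 7 were lower and their sum was 906 to 1151 CPM in aged and 1947 to 2119 CPM in young libraries, and their part in the result was not tested. Slfn2, with its log2 fold change of -0.17, was not called in any of 20 alternative fits, in which it ran from -0.35 to -0.10. Of 23 cell cycle genes none was called higher or lower with edgeR without correction for GC content or gene length. Of the 23, 1 had an unadjusted p under 0.05 by edgeR, beside at least 16.7% of all genes. The median log2 fold change was -0.06. Without aged replicate 1, Ccnd2, a D-type cyclin gene, was lower (adjusted p = 0.0149 by edgeR) and the median was -0.21, and on all libraries DESeq2, limma on the deposited normalized counts and edgeR with the trends of GC content and gene length removed each called 1 gene lower.

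Because Slfn8 and Slfn9 lie side by side, their counts were also compared within each library, a ratio that no scaling between libraries can change. These ratios were chosen after the values had been seen, as 21 pairs of the 7 genes. There were 8.31, 11.8 and 8.76 Slfn8 reads per Slfn9 read in aged replicates 1 to 3 and 5.36, 4.51, 5.56 and 5.11 in the young libraries. The ratio was 1.85-fold higher in aged Tregs, and every aged library exceeded every young one, aged replicate 1 included. The ratio of Slfn5 to Slfn8 moved the other way, at 0.715, 0.350 and 0.552 in aged and 0.938, 1.09, 0.972 and 0.973 in young libraries. So did Slfn1 to Slfn8, at 0.809, 0.809 and 0.717 in aged and 1.29, 1.66, 1.22 and 1.20 in young libraries. The ratio of Slfn5 to Slfn9 overlapped between the groups and was 0.968-fold of the young value (exact two-sided permutation p = 0.686). In all, 11 of the 21 ratios did not overlap between the groups, beside 29.8% of the ratios of all pairs of genes tested with a count in each library. The 21 ratios share 7 genes, and of the 11, 6 contain Slfn4 and the other 2 besides those above are Slfn3 to Slfn5 and Slfn3 to Slfn9. Each of the 11 had an exact permutation p of 0.0571, the smallest possible for 3 against 4 libraries, and no ratio can pass 0.05 in this design.

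How alike the genes were over the 7 libraries was measured as the root mean square difference of log2 CPM after each gene's mean was removed. Slfn5 and Slfn9 were the closest pair of members, at 0.152, followed by Slfn9 with the pseudogene Slfn10-ps at 0.166. Of 9541 other genes whose log2 CPM averaged at least 3, Dnpep, an aminopeptidase gene, was nearest to Slfn2 at 0.028, followed by P4hb, a protein disulfide isomerase gene. The nearest to Slfn4 were S100a9, a neutrophil and monocyte gene, at 0.613 and Ifitm6, which is expressed in myeloid cells. Nearest to Slfn3 were Pydc3, a PYHIN family gene, at 0.0886 and Gm1966. The nearest to Slfn5 were Igsf6 and Sort1, to Slfn8 Hk3 and Prg4, and to Slfn1 Rnf214 and Iqgap2. This measure grows with the range of a gene, which among the members was widest for Slfn4. All these differences share the same 7 libraries and are descriptions.

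Slfn4 and the markers of neutrophils had the same highest and the same lowest library. Of 12 neutrophil marker genes 5 were higher in aged Tregs and none lower, and all 12 were highest in aged replicate 1, beside 9.8% of all genes that were higher and 16.4% that were highest in that library. All 12 were lowest in young replicate 2, as was Slfn4, and the share of all genes lowest there was not computed. All 12 had an unadjusted p under 0.05 by edgeR, beside at least the 16.7% of all genes that were called. The median log2 fold change of the 12 was 2.03, and 0.91 without aged replicate 1. Their summed level was 5810, 2076 and 780 CPM in aged replicates 1 to 3 and 295 to 1027 CPM in young libraries. S100a9 and S100a8, the most abundant of them, were at 324 to 1836 and 155 to 1145 CPM in aged libraries and at 83.9 to 321 and 63.9 to 230 CPM in young libraries. None of the 12 was at 0 in any library, and Ly6g, a defining neutrophil marker, was at 0.561 to 11.9 CPM over the 7 libraries. In aged replicate 3 the neutrophil sum lay inside the young range, whereas its Slfn4 level of 15.7 CPM was above the young maximum of 6.03 CPM. Without aged replicate 1, 3 of the 12 were higher, namely Csf3r, Cxcr2 and Retnlg, beside 11.3% of all genes. For monocytes and macrophages, which also express Slfn4, 1 of 12 markers was higher (Cd14) and 3 were lower (2 without aged replicate 1), with summed levels of 431 to 692 CPM in aged and 592 to 698 CPM in young libraries. The part of these cells in the Slfn4 values was not tested.

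**Figure D4:**
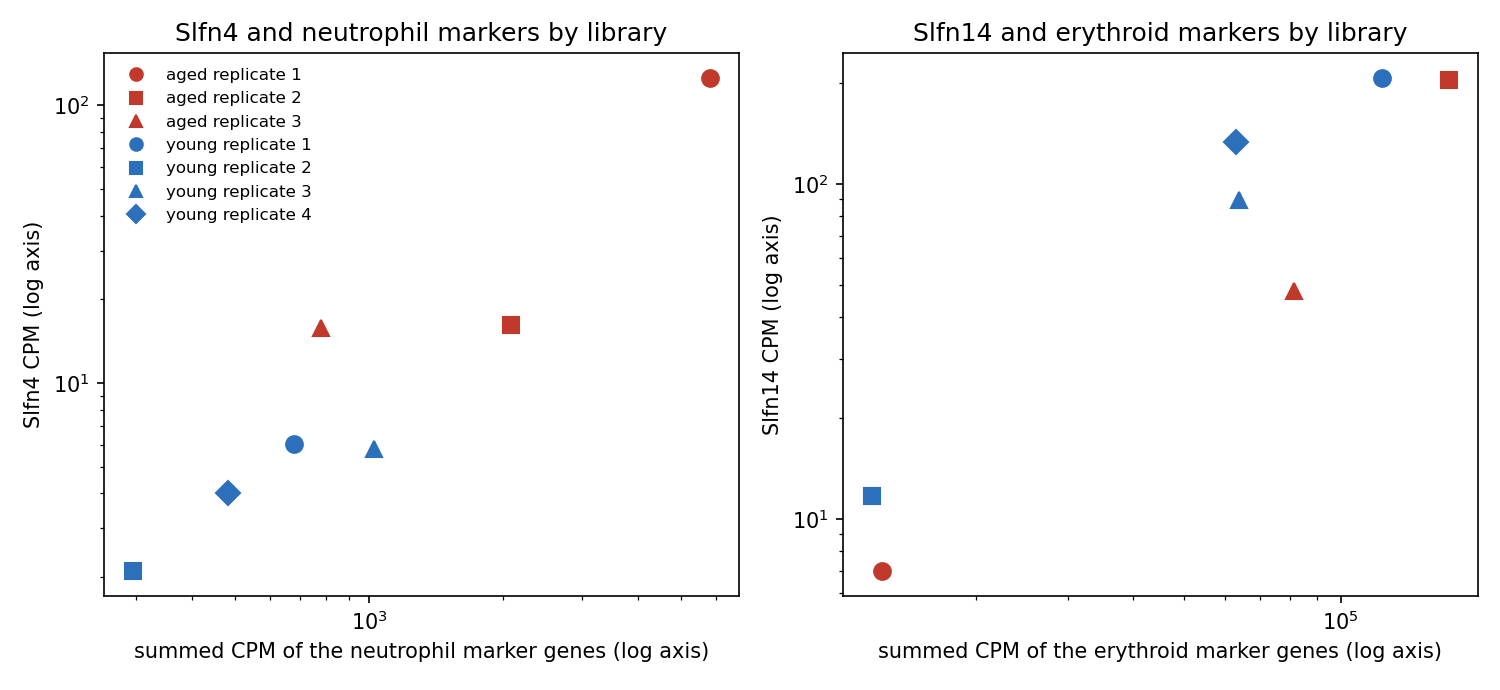
Slfn4 CPM against the summed CPM of 12 neutrophil markers (left) and Slfn14 CPM against the summed CPM of 8 erythroid markers (right), both on log axes, with 1 symbol per library (aged red, young blue). Aged replicate 3, at 780 CPM of neutrophil markers and 15.7 CPM of Slfn4, lies above the young libraries of similar neutrophil level.

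The markers of other cells gave further values to set beside the Schlafen genes. Beside the naive T cell markers given above, of 13 effector memory T cell markers 6 were higher. These counts stand beside 9.8% of all genes that were higher and 6.94% that were lower, so a count of 1 in a short list is no result about that list. Of 10 Treg markers 2 were lower (3 without aged replicate 1). The fitted level of Slfn2 in aged Tregs, for comparison, was 0.891 of that in young Tregs. Among 10 dendritic cell markers 1 was higher and 3 were lower (2 without aged replicate 1), among 5 plasma cell markers 1 was higher, among 5 tested platelet markers 1 was higher (2 without aged replicate 1), and among 6 NK cell markers 1 was lower. None of 10 B cell, 2 CD8 T cell and 8 erythroid markers was called by edgeR. At an unadjusted p under 0.05 by edgeR were 3, 0 and 0, beside at least 16.7% of all genes. The B cell markers summed to 7921 to 12797 CPM in aged and 5589 to 15177 CPM in young libraries. The 10 Treg markers summed to 3032 to 3536 CPM in aged and 2401 to 3873 CPM in young libraries. The parts of these cells in the Schlafen levels were not tested.

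The remaining symbols of the family were read in the same fit. Slfn10-ps, a transcribed pseudogene that shares 19.7% of its 50-base stretches with Slfn8 and Slfn9, was at 24.9, 9.57 and 13.0 CPM in aged and 20.2, 21.2, 20.2 and 15.6 CPM in young libraries. It followed Slfn9, with a log2 fold change of -0.28 (adjusted p = 0.556 by edgeR) and -0.77 without aged replicate 1 (adjusted p = 0.0278 by edgeR). Slfn14, a ribosome-associated endoribonuclease gene known from reticulocytes and platelets, was at 6.99, 205 and 48.0 CPM in aged and 208, 11.7, 89.4 and 133 CPM in young libraries. Its level varied more between libraries of a group than between groups (log2 fold change -0.35, standard error 1.05, adjusted p = 0.853 by edgeR). The summed erythroid markers were lowest in the same libraries, at 13243 CPM in aged replicate 1 and 12626 CPM in young replicate 2, and ran from 62982 to 161051 CPM in the others. The part of erythroid cells in the Slfn14 values was not tested. Slfn5os had no count in any library and Slfnl1, on chromosome 4, had 0 to 2 counts.

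The genes around the cluster were examined to see whether the pattern of aged replicate 1 extended past it. Of the 10 nearest tested genes on each side, 3 were higher (Gm11423, Ccl5 and Ccl4) and 1 was lower (Lig3, a DNA ligase gene), beside 9.8% and 6.94% of all genes, with a median log2 fold change of 0.15. DESeq2 called 8 of these 20 genes, and edgeR called 1 without aged replicate 3 and 2 without young replicate 3. Over all genes the same fits called 2910, 1262 and 1270, beside 2327 in the main fit. None of these 20 genes was highest in aged replicate 1, beside 16.4% of all genes. The farthest of them, C030013C21Rik, had its midpoint at -2557 kb from the start of Slfn2. Inside the cluster, Gm11425, AI662270 and Gm11427, which carry no Schlafen symbol, were not called, and aged replicate 1 had rank 4, 6 and 6 among the 7 libraries for them. Aged replicate 1 was highest for Slfn10-ps and for all other tested Schlafen genes of the cluster except Slfn2 (rank 5) and Slfn14 (rank 7).

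**Figure D5:**
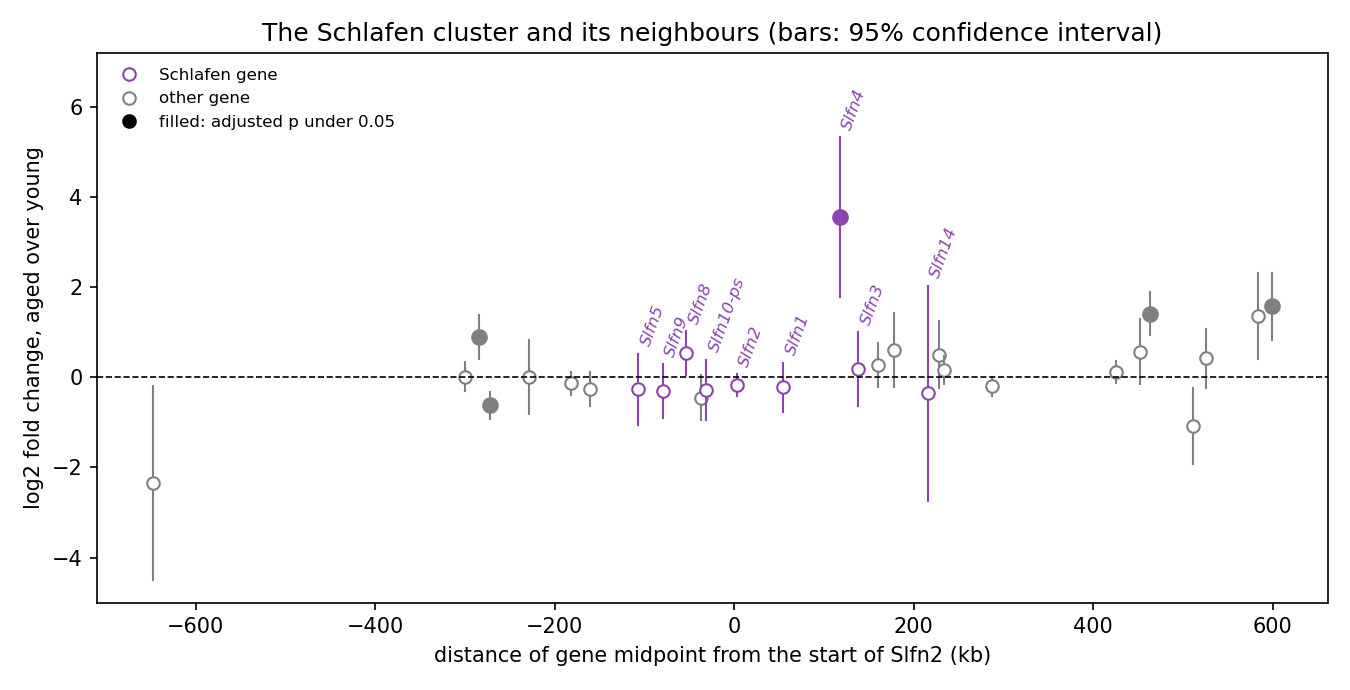
Log2 fold change of aged over young libraries (y axis, bars for the 95% confidence interval) against the distance of the gene midpoint from the start of Slfn2 in kb, for Schlafen genes (purple) and other tested genes (grey) within 700 kb. Filled points had an adjusted p under 0.05, which among Schlafen genes applies to Slfn4 alone.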

How the data were processed

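RNA-sequencing of splenic CD4+CD25+ cells was analysed, with 3 aged and 4 young biological replicates. Libraries were made with a SMART-Seq cDNA kit that adds no molecular identifiers, so intervals and limits cover counting error only where they rest on counts. The authors deposited raw read counts per Ensembl gene, in a layout of HTSeq's union mode without strand, and unassigned or ambiguous reads (13.1% to 20.9%) were left out. The authors also deposited a table of normalized counts, a signal obtained by dividing counts by 1 size factor per library, which was checked to hold for 100% of values within 0.01 count. It also holds the authors' own fold changes on the log2 scale, their standard errors and p-values, which were not used. The submitters' processing notes name mm10, and the aligner is not given in the sources used here. Coordinates are from GENCODE M21 and upstream sequences from RefSeq.

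The 2 groups were tested with the quasi-likelihood method of edgeR 4.0.16 (R 4.3.3) after filterByExpr and TMM normalization, without covariates, and p was adjusted over 13904 genes (Benjamini-Hochberg). A gene was called with an adjusted p under 0.05. Standard errors were obtained by dividing each log2 fold change by the square root of its F statistic. Permutation tests were exact and two-sided. Alternatives were DESeq2 1.42.0, limma 3.58.1 in 3 forms, other normalizations and filters, GC content and gene length trends removed, thinned counts, the replicate number as a block, and each library left out. The tests were also run on simulated counts, and the outcome is not reported here. The gene lists cover T cell quiescence, interferon response, interferon signalling, cell cycle and markers of Treg, naive T, effector memory T, CD8 T, NK, monocyte or macrophage, neutrophil, dendritic, B, plasma, erythroid and platelet cells. Named beside the members were every other Slfn symbol, up to 3 called genes per list with the largest change whose log2 CPM averaged at least 3, the 2 genes nearest to each member, Foxp3, Cd4 and Il2ra, and the 2 most abundant markers of a list where they bear on a result. Other genes, such as Ifi44, Ddx58, Cd14, Csf3r, Cxcr2, Retnlg, Ly6g and the genes around the cluster, were named after their values were seen or because a small count refers to them. Some genes that this rule would name are not reported here. The members and lists were chosen with earlier results of these data known.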

Additional observations from a re-analysis of the deposited data

Results flagged for a closer look

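Of 20 genes named in the comparisons, 1 had a young library that lay far from its group. The aged group of 3 is too small for this check and was not covered, so aged replicate 1 of Slfn4 (126 CPM beside 16.2 and 15.7) and of Slfn9 (21.2 CPM beside 9.87 and 10.01) was not tested. Slfn2 in young replicate 2 was at 379 CPM, and the other 3 young libraries were at 315 to 323 CPM, so the gap took up 0.878 of the whole range of the young group. Chance flags about 1 in 20 groups of this size. Without young replicate 2, the log2 fold change of Slfn2 was -0.10 (adjusted p = 0.527 by edgeR) in place of -0.17.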

How the results depend on the processing

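Of all genes tested 2327 were called, 292 with the replicate number as a block, 294 with the block and the GC content and gene length trends removed, 1016 when a change of 1 or more on the log2 scale was also required, and 1237 to 3058 with each library left out in turn. After removal of the trends alone 1207 genes were higher and 1519 lower, in place of 1362 and 965. Of the Schlafen genes 1 was called, and 0 with DESeq2, with limma voom, with the replicate block and with the block and the trends removed. Leaving out each library gave 0 to 3. DESeq2 gave no p for Slfn4, because 1 library was past its outlier limit. Slfn4 was called in 15 of 19 alternatives that gave a p, with adjusted p from 0.00261 to 0.0778. It was not called with limma voom (adjusted p = 0.07), with the block (adjusted p = 0.076), with the block and the trends removed, or without young replicate 4. Its log2 fold change lay between 1.84 and 4.00. The quiescence, interferon and cell cycle lists with the genes around the cluster held 20 called genes, 31 with DESeq2, 5 with the block, 5 with the block and the trends removed, 10 when a change of 1 or more on the log2 scale was required, and 11 to 26 with each library left out. The same-numbered libraries did not deviate together (correlations -0.0915, -0.292 and -0.138), so the numbers were not taken as pairs. The sign of Slfn3 turned to -0.013 with limma on the deposited normalized counts, -0.024 with the block and -0.14 with the block and the trends removed, and it ran from -0.47 to 0.46 with each library left out. Over the same fits Slfn1 ran from -0.57 to 0.030, Slfn5 from -0.96 to 0.015 and Slfn14 from -2.01 to 0.19. The cause of these changes was not tested. Slfn3 and Slfn4 had 30 to 104 reads in young libraries, and the part of this depth in their errors was not tested.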
